A study of Arabidopsis thaliana with 34 samples.

Results

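Of 33321 counted loci of Arabidopsis thaliana, 52 were expressed in seedlings of the accessions C24 and Col and near silent in those of Ler. Near silent is meant relative to C24 and Col, since the rule sets no upper limit on the Ler level. A locus belonged to this set when its mean level was at least 1 CPM (read counts scaled to library size, with edgeR's trimmed mean factors, TMM) in C24 and in Col, and when each of these means was at least 8 times the Ler mean. The means came from the libraries lettered A and B, and AT5G25980 and AT4G03060 were left out by the rule. The loci were thus chosen by their measured C24, Col and Ler levels in those libraries, which are given as a description with no test. The comparison set for shares and medians is the 22754 loci at 1 CPM or more in both C24 and Col, called expressed loci.

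RNA came from whole aerial tissue of seedlings 15 days old on agar plates, and each library was a pool of 5 to 15 seedlings that the submitters describe as a biological replicate. Inbred C24 and Col, which are natural accessions, and Ler (Landsberg erecta), a laboratory line that carries the induced erecta mutation, were sequenced beside first-generation hybrids made between every pair of them in either direction, 9 genotypes in all. C24 and Ler had 7 libraries apiece, both hybrids of C24 with Ler had 5, and Col and the remaining 4 hybrids (C24xCol, ColxC24, ColxLer, LerxCol) had 2. The labels name no transgene or treatment, and the mother of a cross is not stated. Below, C24/Ler, C24/Col and Col/Ler hybrids mean both directions of a cross together.

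An F1 hybrid inherits a copy of each gene from either parent. Where a parent's copy is silent and the other copy keeps its own output, the hybrid is expected near the mean of the parents. Accessions of this species differ often in transposons and their remnants, and in the NLR genes, whose products are intracellular receptors that recognise pathogen effectors and start defence.

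Total counts were 36324848 to 88686247 in the 30 libraries not lettered C and 13198638 to 20435372 in the 4 lettered C. The leaf genes RBCS1A, LHCB1.3, RCA and LHCA1 summed to between 14855 and 47241 CPM in every library, and the root genes CASP1, COBL9, EXPA7 and MYB36 to between 2.52 and 41.7 CPM. Libraries Ler D and Ler E stood apart. The 52 loci had a median of 3.77%, 4.33%, 4.00% and 3.50% of the C24 level in Ler A, B, F and G, but 44.0% in Ler D and 35.1% in Ler E. A set of 30 loci of Col alone (at 5 CPM or more and at least 20-fold above C24 and Ler in letters A and B) also read 33.71% and 32.95% of the Col level in Ler D and Ler E and no more than 1.76% elsewhere in Ler. A set of 18 loci of C24 alone, chosen by the same limits, read 2.28% and 1.66% of the C24 level in Ler D and Ler E. Whether these libraries hold the genotype of their labels was not tested, so that every value of Ler D and Ler E below is that of a library so labelled. In the C libraries 9 of the 52 loci were at 0 in all 4 genotypes sequenced there (17.3%, against 9.88% of expressed loci), and Ler C had 33 of the 52 at 0. The C libraries had 11393 to 11692 of all loci at 0 and 0 to 6 at a count of 1. The other libraries had 2066 to 2742 and 346 to 581. A 0 in a C library is thus given as a count and not read as absence of the transcript. How these zeros arose was not tested. Results that rest on Ler D, Ler E or the C libraries are given with and without them, and the part of either in a result was not tested.

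**Figure D1:**
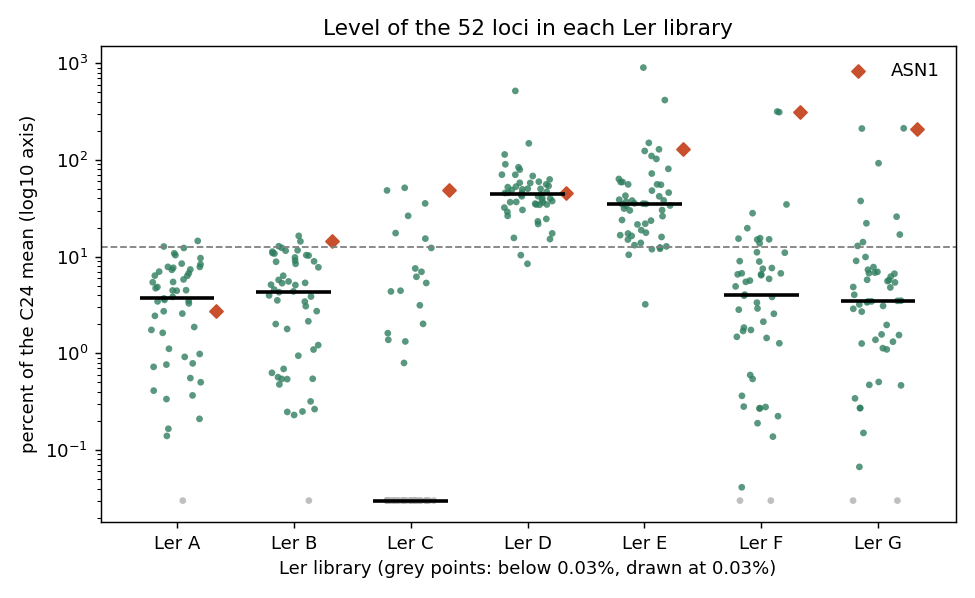
Level of each of the 52 loci in the 7 Ler libraries as a percent of the C24 mean on a log10 axis, from C24 A and B for Ler A and B and from C24 D to G for the others. Each point is a locus, the black bar is the median, the dashed line marks 12.5% and the diamond is ASN1. In Ler D and Ler E 50 and 47 loci lie at or above the line, and ASN1 lies at 317% in Ler F and 212% in Ler G.

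By annotation the 52 loci comprised 13 transposable elements or pseudogenes (25%, against 3.74% of expressed loci), 6 non-coding RNAs (11.5%, against 1.34%), 4 NLR genes (7.69%, against 0.848%), 10 uncharacterized proteins (19.2%, against 5.96%), an F-box gene, a protein kinase gene and 17 other named proteins. They lay on all 5 chromosomes, with 14, 13, 11, 5 and 9 loci on chromosomes 1 to 5. Among them 14 sat in 6 groups of neighbouring loci, 15 overlapped another annotated gene and 7 had at least 95% identical sequence elsewhere in the genome over most of their length. The counts of overlapping and repeated loci are uncertain, because reads could have been assigned to either copy or strand. A low count in Ler may stand for a copy that is absent or too different in sequence to be counted, fewer cells that use it, or less RNA per cell, and these cannot be told apart here.

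In letters A and B the 52 loci had a median mean level of 15.0 CPM in C24, 12.2 CPM in Col and 0.643 CPM in Ler. The Ler means ran from 0 to 23.4 CPM, the highest being that of ASN1. The C24 level was 8.20 to 512 times the Ler level (median 23.1) and the Col level 8.50 to 631 times (median 17.9) over the 51 loci with counts in Ler. The remaining locus, the pseudogene AT2G09800, had no count in Ler A or Ler B, which places C24 at least 55.3-fold and Col at least 584-fold above it when 3 counts over the pair of libraries (0.0190 CPM) are taken as the floor. At the edge of the rule, AT3G26235 stood 8.20 and AT3G44093 8.24 times above Ler, while MSRB4 at 7.91 and HEI10 at 7.83 stayed out. HEI10 overlaps MRD1, which is in the set. On the level limit AT2G09800 at 1.05 CPM and AT3G26235 at 1.06 CPM in C24 were in, and AT2G09795 at 0.998 CPM in C24 and AT5G28090 at 0.986 CPM in Col were out.

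In the hybrids most of the 52 loci read close to the mean of their parents. The median ratio of hybrid to parents' mean was 0.975 in C24xLer, 1.11 in C24xCol, 1.09 in ColxC24, 1.11 in ColxLer and 1.01 in LerxCol, and 37, 41, 37, 42 and 43 of the 52 lay between 0.8 and 1.25. LerxC24 was lower, with a median of 0.755 and 16 of 52 in that range, and its libraries differed, with 0.881 in A and 0.644 in B. Expressed loci had medians of 0.992 to 0.997 in the 6 hybrids, and 86.4% to 90.8% of them lay in the range. The ratio is a description, since its denominator chose the loci.

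In the C24/Col cross, where neither parent is near silent, the pseudogene AT2G11140 and the non-coding RNA AT5G48412 had all 4 hybrid libraries above every parent library (background, expressed loci, 2.23%) and the subtilase gene AT4G21650 had all 4 below (1.99%). These shares are near the background. In the C24/Ler and Col/Ler crosses no locus lay above or below all parent libraries (2.16% and 1.37%, and 1.16% and 1.15% of expressed loci). There the rule itself sets the parents at least 8-fold apart, so nothing is read from these zeros.

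**Figure D2:**
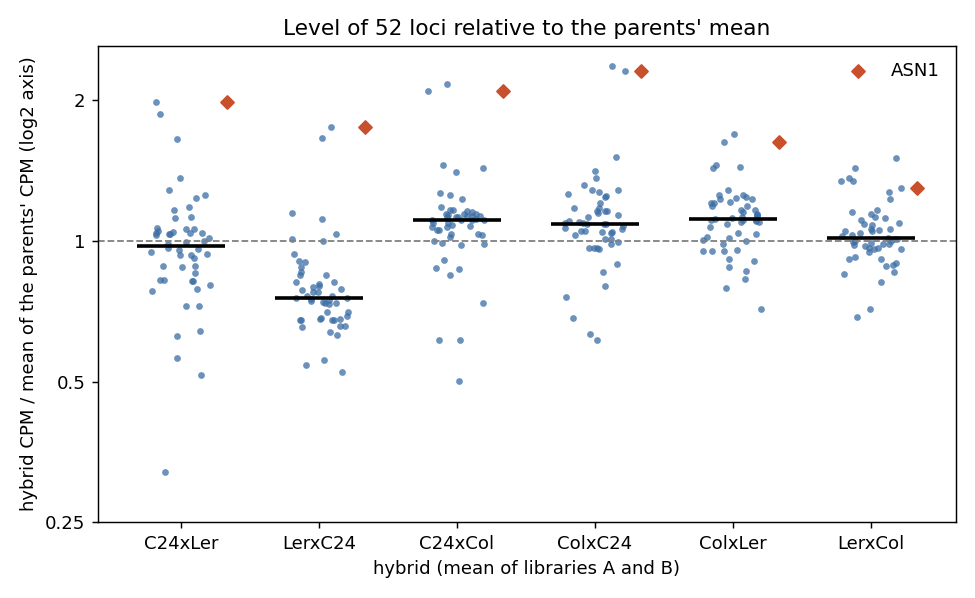
Ratio of the mean hybrid CPM to the mean of the parents' CPM for each of the 52 loci, libraries A and B, on a log2 axis. Points are loci, black bars are medians, the dashed line is the parents' mean and the diamond is ASN1, which lies at 1.297 to 2.31 in all 6 hybrids. The LerxC24 median of 0.755 is the lowest of the 6.

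Hybrids with a Ler parent carried less of these transcripts than the hybrids of C24 and Col. All 52 loci had a negative log2 difference between C24/Ler and C24/Col hybrids, with a median of -1.23, and 45 of 52 were called lower (4.88% of all 29777 loci tested were called lower in this comparison and 3.2% higher). All 52 were also negative between Col/Ler and C24/Col hybrids, with a median of -0.97, and 40 were called lower (3.9% of all loci were called lower and 3.9% higher). None was called higher in either comparison. At an unadjusted p below 0.05 there were 50 of 52 in each (20.3% and 20.2% of all loci, either direction). Calls are at an adjusted p below 0.05 from edgeR's quasi-likelihood test with Benjamini-Hochberg adjustment over all loci, on the 18 libraries lettered A and B. Both comparisons use the same C24/Col libraries.

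The difference was present within each letter. In letter A 51 of the 52 loci were lower in C24/Ler than in C24/Col hybrids and in letter B all 52, with medians of -1.11 and -1.25 in log2. For Col/Ler against C24/Col hybrids the counts were 52 and 51, with medians of -0.98 and -0.93. Every C24/Ler library lay below every C24/Col library for 49 of the 52 loci (9.79% of expressed loci), and every Col/Ler library for 47 (9.19%). When all 34 libraries were placed in the same fit, whose spread then included Ler D, Ler E and the C libraries, 2 and 0 loci were called lower (0.938% and 0.269% of all loci), and the medians were -1.05 and -0.97.

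All 4 NLR genes were called lower in both comparisons, and 3 of them are described here. CSA1 and DAR4 are neighbouring NLR genes that face away from each other on chromosome 5, with 3544 bases between them, and their products are known to act as a pair. CSA1 read 60.02 and 73.0 CPM in C24, 21.4 and 29.6 in Col and 2.96 and 2.28 in Ler, letters A and B. DAR4 read 40.8 and 49.1 CPM in C24, 29.7 and 37.1 in Col and 2.46 and 2.49 in Ler. Both were low in Ler A and B, and in Ler F and G, with 3.98 and 3.43 CPM of CSA1 and 3.76 and 3.08 of DAR4. Ler D and Ler E held 14.9 and 10.3 CPM of CSA1 and 28.7 and 14.3 of DAR4. Both genes read 0 in Ler C, which as a zero of a C library is not read as absence. In C24/Ler hybrids CSA1 ranged from 22.5 to 34.9 CPM and DAR4 from 18.8 to 29.8, in Col/Ler hybrids from 12.03 to 16.02 and from 18.8 to 26.1, and in C24/Col hybrids from 43.0 to 47.4 and from 37.8 to 48.3. Among hybrid libraries, those of C24/Col were the highest for each gene, and only for CSA1 did the other families part without overlap. CSA1 fell by 0.67 ± 0.12 (log2, adjusted p = 0.00503) in C24/Ler and by 1.65 ± 0.12 (5.62e-06) in Col/Ler against C24/Col hybrids, and DAR4 by 0.91 ± 0.13 (0.000851) and 0.96 ± 0.13 (0.000666), in edgeR's test.

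AT1G63880, an NLR gene of the TIR class, read 62.5 and 101 CPM in C24, 63.6 and 92.9 in Col and 4.75 and 4.37 in Ler. The C24/Ler hybrid libraries held 37.2 to 48.3 CPM, the Col/Ler libraries 46.9 to 57.7 and the C24/Col libraries 90.6 to 93.8. All hybrid libraries with a Ler parent lay below every C24 and Col library of letters A and B. Its log2 difference from C24/Col hybrids was -1.16 ± 0.15 (adjusted p = 0.000317) for C24/Ler and -0.82 ± 0.15 (0.00445) for Col/Ler hybrids, by edgeR.

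AT2G25450, known as the glucosinolate hydroxylase GSL-OH, adds a hydroxyl group to an alkenyl glucosinolate, a defence compound of the cabbage family. It read 46.5 and 65.1 CPM in C24, 349 and 244 in Col and 7.11 and 5.74 in Ler. The C24/Ler hybrids held 14.1 to 35.4 CPM, the Col/Ler hybrids 75.6 to 141 and the C24/Col hybrids 152 to 262. The families did not overlap, and the order followed the Col parent. The log2 difference was -3.33 ± 0.33 (adjusted p = 0.000123) for C24/Ler against C24/Col hybrids and -0.95 ± 0.33 (0.12, not called) for Col/Ler against C24/Col hybrids, in edgeR's test.

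AT1G66100 encodes a thionin, a small antimicrobial peptide, and showed the opposite order of parents. It read 172 and 189 CPM in C24, 31.1 and 34.8 in Col and 1.420 and 1.246 in Ler. The C24/Ler hybrids held 48.7 to 90.6 CPM, the C24/Col hybrids 101 to 134 and the Col/Ler hybrids 12.2 to 21.5. Hybrids with a C24 parent were all above those without. Col/Ler hybrids fell by 2.94 ± 0.20 (log2, adjusted p = 5.27e-06) against C24/Col hybrids, and C24/Ler hybrids differed by -0.66 ± 0.20 (0.0678, not called), by edgeR.

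AT5G43440 encodes a 2-oxoglutarate-dependent dioxygenase and AT4G21650 a subtilase, a serine protease. AT5G43440 read 63.6 and 74.6 CPM in C24, 62.4 and 91.8 in Col, 6.68 and 6.13 in Ler, 31.5 to 46.0 in C24/Ler hybrids, 45.1 to 49.6 in Col/Ler hybrids and 87.0 to 96.5 in C24/Col hybrids. AT4G21650 read 117 and 113 CPM in C24, 133 and 103 in Col, 5.44 and 4.46 in Ler, 20.01 to 43.8 in C24/Ler hybrids, 41.2 to 69.4 in Col/Ler hybrids and 70.8 to 72.4 in C24/Col hybrids. AT5G43440 was called lower in both families with a Ler parent (-1.27 ± 0.13 and -0.95 ± 0.13 in log2, adjusted p = 6.87e-05 and 0.000775). AT4G21650 was called in C24/Ler hybrids (-0.95 ± 0.18, 0.00736) and differed by -0.48 ± 0.18 (0.162) in Col/Ler hybrids, edgeR. It was also the locus whose C24/Col hybrids all lay below both parents, at 0.613 of their mean.

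ASN1, which makes asparagine from glutamine for nitrogen transport and storage and whose transcript is known to build up in darkness and sugar starvation, read above the mean of its parents in most hybrid libraries. It read 107 and 439 CPM in C24 A and B, 93.1 and 558 in Col and 7.43 and 39.3 in Ler. The hybrid libraries A and B held 185 and 401 CPM in C24xLer, 188 and 331 in LerxC24, 195 and 373 in ColxLer, 215 and 238 in LerxCol, 414 and 841 in C24xCol, and 543 and 842 in ColxC24. Letter B was above letter A in every genotype. Within each letter both C24/Col hybrids exceeded both parents.

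The ASN1 ratio to the parents' mean was 1.98 in C24xLer, 1.75 in LerxC24, 2.10 in C24xCol, 2.31 in ColxC24, 1.62 in ColxLer and 1.297 in LerxCol, with no test. Within letter A the ratios ran from 3.25 to 5.43 and within letter B from 0.796 to 1.69, and LerxCol B was the library below its parents' mean. The spread between letters was wide, and the log2 differences of -1.26 (adjusted p = 0.331, edgeR) for C24/Ler and -1.38 (0.283) for Col/Ler against C24/Col hybrids were not called. That fit had no term for the letter, so the gap between letters counted as spread. Within each letter every hybrid with a Ler parent lay below both C24/Col hybrids, so the missing call is not read as equal levels. In the libraries outside A and B, C24 held 74.97, 39.7, 21.7, 166 and 80.7 CPM in C to G and Ler held 37.4, 35.2, 99.5, 245 and 163 CPM. Ler F and Ler G were thus above C24 F and C24 G, and ASN1 was not near silent in Ler there.

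ASN1 has 2 neighbours in the set. The short AT3G47341 overlaps its start by 11 bases on the other strand, and HSD2, which encodes a hydroxysteroid dehydrogenase, lies 5250 bases further on. AT3G47341 followed the pattern of ASN1, with 0.893 and 4.61 CPM in C24 A and B, 0.0710 and 0.285 in Ler A and B, and 3.26 and 2.22 in Ler F and G. Its counts were small beside those of ASN1, with 67 against 7995 in C24 A and 268 against 20114 in Ler F. Its reads may be those of ASN1, so the pair is not counted as 2 separate results. HSD2 read 8.75 and 18.6 CPM in C24 A and B, 0.450 and 0.870 in Ler A and B, and 3.34 and 3.08 in Ler F and G against 12.4 and 11.7 in C24 F and G. HSD2 stayed below C24 in those Ler libraries, and it was called lower in C24/Ler than in C24/Col hybrids (-1.59 ± 0.33, adjusted p = 0.0128, edgeR). In letters A and B its hybrid libraries held 5.30 to 12.2 CPM in C24/Ler, 11.2 to 15.4 in Col/Ler and 18.8 to 30.5 in C24/Col crosses.

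The start of ASN1 is printed because the gene had the highest ratio of the 52 in both C24/Ler hybrids and overlaps AT3G47341 there. The window runs from 250 bases before to 50 after the annotated start, at chr3:17441382-17441681 on the minus strand (RefSeq annotation of TAIR10.1). Capitals mark CACGTG, the G-box bound by bZIP and bHLH factors, and GTCAA, which on the opposite strand is TTGAC, the core of the W-box bound by WRKY factors. TATAAA, the TATA box core, was searched as well, all on both strands.
ASN1 promoter: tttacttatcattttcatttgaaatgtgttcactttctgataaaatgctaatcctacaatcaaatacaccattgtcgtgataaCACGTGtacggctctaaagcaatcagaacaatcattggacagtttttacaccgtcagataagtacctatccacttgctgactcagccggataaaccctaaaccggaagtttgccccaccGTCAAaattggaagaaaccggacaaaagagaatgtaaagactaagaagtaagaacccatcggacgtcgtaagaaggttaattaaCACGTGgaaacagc
CACGTG starts at positions 84 and 287 counted from the first base printed, and 7.79% of the 26706 windows of protein-coding genes hold it at least once. TTGAC was found in 50.5% and TATAAA in 52.6% of them.

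**Figure D3:**
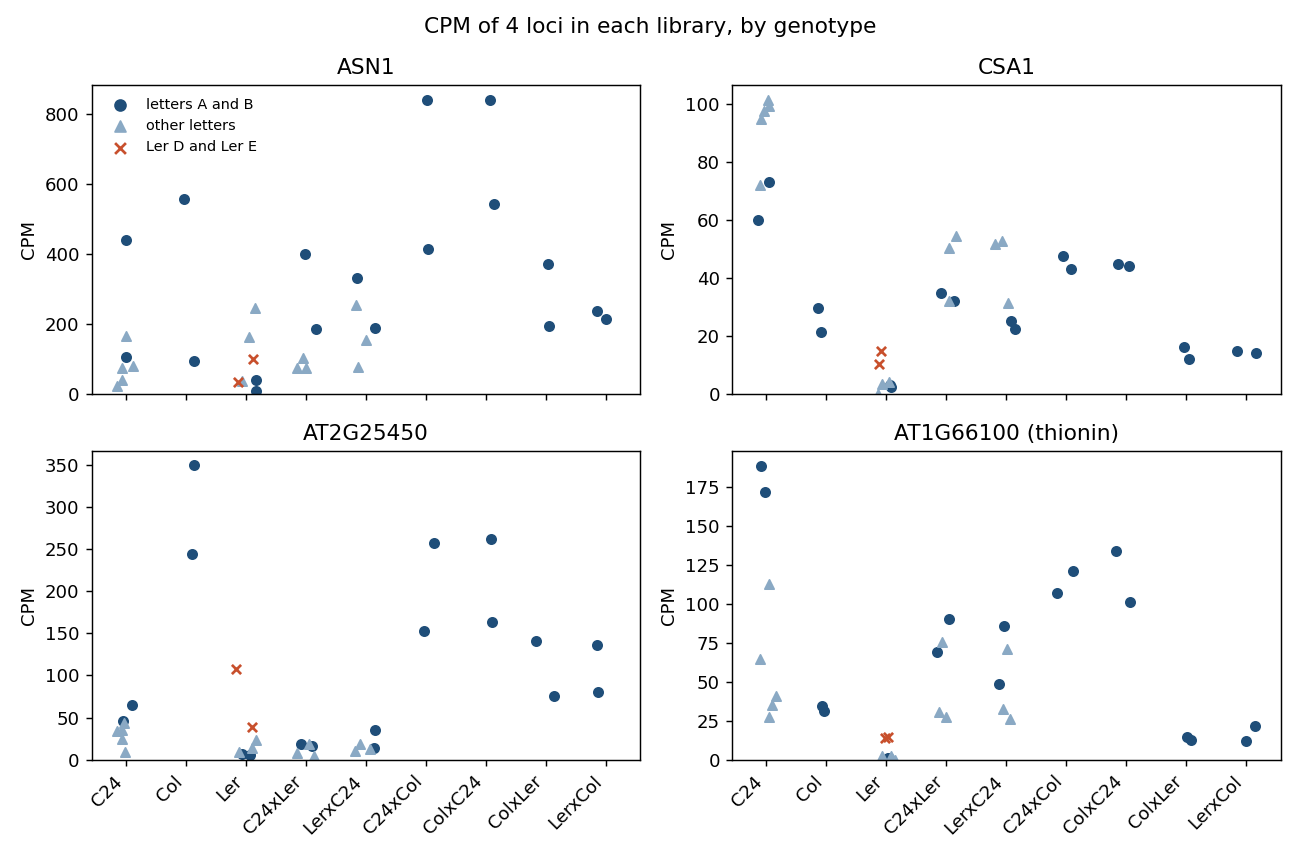
CPM of ASN1, CSA1, AT2G25450 and the thionin gene AT1G66100 in every library by genotype, on linear axes. Circles are letters A and B, triangles the other letters and crosses Ler D and Ler E. CSA1 in Ler D and Ler E lies at 14.9 and 10.3 CPM, where the other 5 Ler libraries lie at 0 to 3.98, and ASN1 in Ler F and Ler G lies at 245 and 163 CPM.

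The uncharacterized protein gene AT2G25510 varied widely among hybrid libraries. It read 330 and 312 CPM in C24, 143 and 276 in Col and 0.450 and 0.805 in Ler. Its hybrid libraries held 57.3 and 45.9 CPM in C24xLer, 147 and 27.3 in LerxC24, 89.9 and 91.4 in ColxLer, 159 and 142 in LerxCol, 155 and 111 in C24xCol, and 254 and 108 in ColxC24. The ranges of the 3 families overlapped. The ratio to the parents' mean was 0.321 in C24xLer, the lowest of the 52 loci in that hybrid, and 1.43 in LerxCol, and no comparison between families was called (adjusted p = 0.141, 0.687 and 0.441, edgeR).

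Transposable elements and pseudogenes had a higher median ratio to the parents' mean in C24xLer than in LerxC24, as did the other classes. The 13 loci had a median of 1.04 (0.826 to 1.86) in C24xLer and 0.779 (0.685 to 1.14) in LerxC24. Other named proteins had 0.939 and 0.739, uncharacterized proteins 0.971 and 0.733, NLR genes 0.981 and 0.786, and non-coding RNAs 0.893 and 0.745. Over the whole set the median log2 difference between these directions was 0.30. It was 0.08 without LerxC24 B and 0.56 without LerxC24 A. With both libraries edgeR called no locus of the set. With both directions together the ratios of the 13 ran from 0.787 to 1.32 (median 0.925) in C24/Ler, from 0.945 to 1.251 (1.11) in C24/Col and from 0.927 to 1.19 (1.05) in Col/Ler hybrids. All 13 were called lower in C24/Ler and 11 of 13 in Col/Ler against C24/Col hybrids. SADHU2-1 and SADHU1-2 belong to Sadhu, a family of non-autonomous retroelements of Arabidopsis. SADHU2-1 read 4.23 and 7.04 CPM in C24, 6.68 and 8.98 in Col and 0.0118 and 0.0130 in Ler, and SADHU1-2 read 16.5 and 15.5, 17.2 and 14.9, and 1.255 and 1.350 CPM. Both were low in both Ler libraries. SADHU2-1 was also at 0 in Ler F and G but at 7.14 and 1.66 CPM in Ler D and Ler E. Its 0 in Ler C is not read as absence. SADHU2-1 shares 770 bases with the pseudogene AT1G35110 on the same strand, and their counts were alike, with 317 and 283 in C24 A and 560 and 479 in C24 B. The pair is thus not 2 separate results among the 13.

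Among hybrids the transcribed pseudogene AT4G04692 was lowest in the C24/Ler and highest in the C24/Col family. It read 44.1 and 39.7 CPM in C24, 54.8 and 59.97 in Col and 0.154 and 0.104 in Ler. Hybrid libraries held 15.4 to 20.5 CPM in C24/Ler, 26.6 to 33.6 in Col/Ler and 51.3 to 57.2 in C24/Col crosses, with no overlap. The log2 differences from C24/Col hybrids were -1.55 ± 0.10 (adjusted p = 1.66e-06) and -0.80 ± 0.10 (0.000491) in edgeR's test.

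AT3G61010, annotated as a ferritin-like protein, and the transcribed pseudogene AT3G61020 start back to back on chromosome 3. AT3G61010 read 56.0 and 49.4 CPM in C24, 51.99 and 59.8 in Col and 0.177 and 0.285 in Ler. AT3G61020 read 8.91 and 10.2 CPM in C24, 7.46 and 10.0 in Col and 0.106 and 0.0519 in Ler. Both were near 0 in Ler A, B, F and G, and their 0 in Ler C is not read as absence. Ler D and Ler E held 34.4 and 28.8 CPM of AT3G61010 and 7.01 and 4.54 of AT3G61020. In C24/Ler hybrids AT3G61010 held 17.0 to 27.8 CPM and AT3G61020 3.55 to 5.78, in Col/Ler hybrids 26.4 to 38.1 and 3.64 to 6.03, and in C24/Col hybrids 53.1 to 58.9 and 7.97 to 11.6. Both genes were called lower in both families with a Ler parent, by 1.251 and 0.82 (adjusted p = 0.000229 and 0.00532, edgeR) for AT3G61010 and by 1.21 and 1.13 (0.00236 and 0.00391) for AT3G61020 on the log2 scale. All 52 loci had negative differences in both comparisons, so these falls are not particular to the pair.

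The 176 bases between these annotated starts are printed because the loci on both sides belong to the set. They lie at chr3:22575311-22575486, shown on the plus strand of TAIR10.1, have an AT content of 71.0%, and hold none of the motifs TATAAA, or CACGTG, or TTGAC on either strand, so no letter is in capitals.
AT3G61010 to AT3G61020: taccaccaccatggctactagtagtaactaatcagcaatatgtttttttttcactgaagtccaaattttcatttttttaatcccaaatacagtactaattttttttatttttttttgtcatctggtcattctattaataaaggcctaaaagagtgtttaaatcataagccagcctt
In windows of the same length directly before the start of protein-coding genes, 38.1% held TATAAA, 5.35% CACGTG and 34.9% TTGAC.

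The leucine-rich repeat gene AT2G15042 and the neighbouring RLP18, a receptor-like protein gene annotated as a transcribed pseudogene, were highest in C24. AT2G15042 read 55.1 and 54.3 CPM in C24, 9.04 and 13.6 in Col and 0.225 and 0.298 in Ler. RLP18 read 17.1 and 24.1 CPM in C24, 3.73 and 5.70 in Col and 0.189 and 0.117 in Ler. The C24 libraries exceeded the Col libraries for both. Col/Ler hybrids held 7.13 to 7.43 CPM of AT2G15042 and 2.54 to 2.86 of RLP18, where C24/Ler hybrids held 13.6 to 23.5 and 5.63 to 9.91 and C24/Col hybrids 30.6 to 42.1 and 13.2 to 16.02. Against C24/Col hybrids the Col/Ler hybrids fell by 2.29 ± 0.16 (log2, adjusted p = 3.94e-06) and 2.38 ± 0.19 (1.01e-05) in edgeR's test.

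The 6 non-coding RNAs were all called lower in C24/Ler and 4 of them in Col/Ler against C24/Col hybrids. AT4G38932, a long non-coding RNA, read 77.3 and 69.9 CPM in C24, 27.1 and 31.4 in Col and 1.80 and 1.48 in Ler. Its hybrid libraries held 20.9 to 35.5 CPM in C24/Ler, 13.8 to 17.5 in Col/Ler and 55.3 to 58.8 in C24/Col crosses, with no overlap. It fell by 0.99 ± 0.11 (log2, adjusted p = 0.00015) in C24/Ler and by 1.82 ± 0.11 (1.2e-06) in Col/Ler against C24/Col hybrids, by edgeR.

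The long non-coding RNA AT2G13665 and the uncharacterized gene AT2G13660 share 934 bases on opposite strands. In letters A and B their CPM were nearly the same, with 37.4 and 26.6 in C24 for the former and 37.6 and 26.9 for the latter, 10.6 and 11.6 against 10.8 and 11.7 in Col, and 1.18 and 0.688 against 1.44 and 0.882 in Ler. In C24 C the former read 2.96 and the latter 0. Their calls therefore cannot be counted as separate results, and the strand of the reads cannot be told apart from these counts.

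Among the other named proteins 13 of 17 were called lower in each comparison with C24/Col hybrids, and among the uncharacterized proteins 7 and 6 of 10. MRD1, known as a transcript reduced in a methionine-overproducing mutant, read 38.4 and 32.7 CPM in C24, 42.7 and 47.3 in Col and 3.85 and 3.83 in Ler. ZW9, a TRAF-like protein gene, read 85.9 and 79.7 CPM in C24, 49.7 and 49.0 in Col and 3.73 and 3.56 in Ler. Both had every hybrid library with a Ler parent below every C24/Col library, at 12.9 to 30.2 against 43.6 to 49.6 CPM for MRD1 and 20.2 to 38.3 against 53.4 to 78.8 CPM for ZW9. MRD1 fell by 1.48 ± 0.11 (log2, adjusted p = 4.04e-06) in C24/Ler and 0.89 ± 0.11 (0.000354) in Col/Ler hybrids, and ZW9 by 0.92 ± 0.17 (0.00634) and 1.16 ± 0.17 (0.00155), by edgeR. MRD1 overlaps HEI10, which codes for a factor of meiotic crossing over, so its reads may be shared.

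Among hybrids that share the Ler genome, part of the loci differed with the other parent. Between C24/Ler and Col/Ler hybrids 9 of the 52 loci were called higher (2.05% of all loci) and 14 lower (3.63%), edgeR, and 33 had an unadjusted p below 0.05 in either direction (16% of all loci). In the fit of all 34 libraries 0 were called higher (0.696% of all loci) and 1 lower (0.842%). The libraries are those of the comparisons with C24/Col hybrids. The thionin gene AT1G66100 (2.28 ± 0.20 in log2, adjusted p = 3.24e-05), RLP18 (1.59 ± 0.19, 0.000234), AT2G15042 (1.41 ± 0.16, 0.000172), the nucleoside phosphatase gene AT1G14250 (1.34 ± 0.32, 0.0333) and CSA1 (0.99 ± 0.12, 0.000358) led the higher side. The pseudogene AT2G09800 (-3.02 ± 0.15, 3.67e-07), AT2G25450 (-2.38 ± 0.33, 0.00142), the non-coding RNA AT4G12917 (-1.96 ± 0.20, 5.4e-05), the leucine-rich repeat gene AT3G43740 (-1.40 ± 0.14, 4.34e-05) and AT5G27890 (-1.29 ± 0.18, 0.000663) led the lower side.

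AT2G09800 shows the lower side. It read 1.19 and 0.918 CPM in C24, 10.9 and 11.3 in Col and 0 in both Ler libraries. Hybrid libraries held 0.332 to 1.16 CPM in C24/Ler, 4.69 to 5.52 in Col/Ler and 6.24 to 7.49 in C24/Col crosses. The families did not overlap. AT2G09795 overlaps AT2G09800, so their reads may be shared.

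AT1G14250 stands for the higher side. It read 157 and 192 CPM in C24, 36.8 and 27.5 in Col and 1.72 and 1.65 in Ler, and 57.8 and 52.2 CPM in C24xLer but 92.2 and 23.4 in LerxC24. The LerxC24 libraries differed widely, and Col/Ler hybrids held 16.7 to 29.5 CPM. Without LerxC24 A the log2 difference between C24/Ler and Col/Ler hybrids was 0.69 in place of 1.34 and without LerxC24 B 1.68, and the call was lost without Ler A or B, C24xLer A or B, C24xCol A or B, or any of the 4 Col/Ler libraries (1.23 to 1.47).

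Across the 52 loci the hybrid difference followed the difference between the inbred parents. The log2 ratio of C24 to Col in the inbreds and the fitted log2 difference between C24/Ler and Col/Ler hybrids had Pearson's r of 0.959 and Spearman's rho of 0.886, with a slope of 0.829. All 23 called loci had the same sign in hybrids and inbreds. Some of the loci not called had opposite signs, such as AT2G25510 (0.618 in the inbreds and -0.799 in the hybrids) and AT1G24145 (0.531 and -0.332). Over the 22754 expressed loci the values were 0.755, 0.641 and 0.444, and 1161 of 1172 called loci shared the sign. These are descriptions across loci, which are not independent, with letters A and B on both sides and the C24 and Col values used by the rule.

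**Figure D4:**
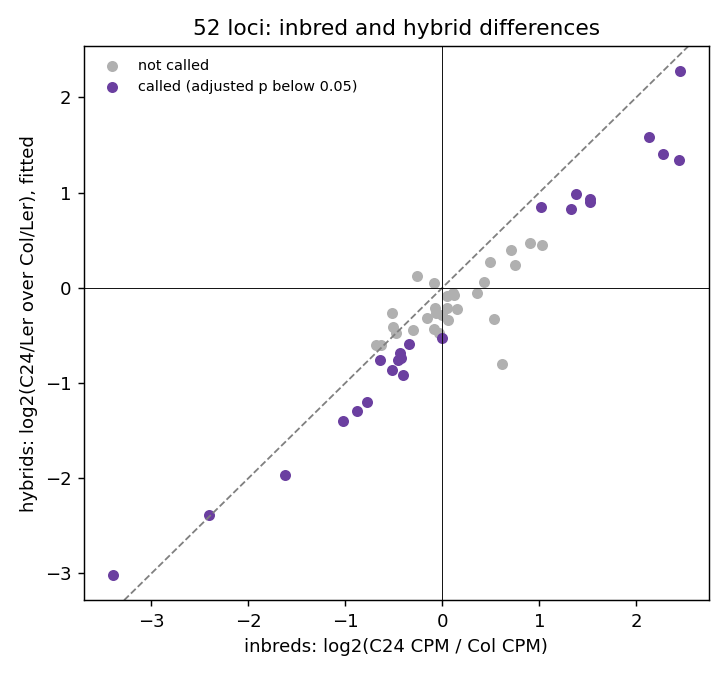
Log2 ratio of C24 to Col CPM in the inbreds (x) against the fitted log2 difference between C24/Ler and Col/Ler hybrids (y), libraries A and B. Each point is a locus, purple points are called at an adjusted p below 0.05 and the dashed line is equality. The 23 purple points run from -3.02 to 2.28 on the y axis.

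The libraries that the rule did not use gave a separate measure of C24 against Ler, in the 16 libraries of C24, Ler and their hybrids outside A and B. The median log2 difference over the 52 loci was 2.36 (all 29213 loci tested, -0.01), 48 of 52 were positive and 7 were called higher (0.698% of all loci, and 0.952% lower). No locus was called lower, and 33 had an unadjusted p below 0.05 (8.42% of all loci, either direction). The 5 with the largest difference among those called were the long non-coding RNA AT4G38932 (3.95 ± 0.52, adjusted p = 0.00197, edgeR), CSA1 (AT5G17880, 3.81 ± 0.67, 0.0149), the actin family gene AT2G42170 (3.18 ± 0.61, 0.0229), AT2G01090, which encodes a subunit of mitochondrial complex III (3.09 ± 0.60, 0.0244), and the AT-hook gene AT4G39925 (2.46 ± 0.40, 0.00587). The calls on CSA1, AT2G42170 and AT2G01090 were lost without Ler F (3.67, 2.94 and 2.88) and without Ler G (3.65, 2.95 and 2.88). AT2G42170 was also lost without C24 D, F or G (3.11 to 3.17) and AT2G01090 without C24 G or Ler D (3.12 and 2.92).

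With the replicate letter as a block, which also leaves out U1 and U2 because no label gives their letter, 28 of 52 were called higher (7.59% of all loci). The count was 21 without the C libraries (3.82% of all loci), 37 without Ler D and Ler E (0.901%), and 48 without all of these (7.28% higher and 7.07% lower), with a median log2 difference of 4.74. In that last fit Ler F and Ler G were the only Ler libraries, against C24 D to G. Calls over all loci rose too under the block and without the C libraries. Ler D and Ler E were set apart partly by the level of these same 52 loci, so the counts without them are a description and no separate support. Without the C libraries, Ler D and Ler E the 4 loci not called were AT1G24145 (3.02), AT2G25450 (0.65), ASN1 (-1.41) and AT3G47341 (-1.48). AT2G25450 read 13.4, 38.6, 108, 8.999 and 24.05 CPM in Ler C to G against 43.9, 9.13, 24.5, 34.5 and 35.6 in C24, so its groups overlapped. AT2G25510 is an example of the rest, with 161 to 598 CPM in C24 C to G, 0, 0.547 and 0.266 in Ler C, F and G, and 146 and 408 in Ler D and Ler E.

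In the same 16 libraries no locus of the 52 was called away from the mean of the parents (0% of all 29213 loci tested were called in either direction). At an unadjusted p below 0.05 there were 2 (AT2G25450 and AT1G67000, 1.64% of all loci), and the median log2 difference was -0.25 (all loci, -0.06). Without the C libraries, Ler D and Ler E none was called higher (0.0135% of all loci) or lower (0.0406%), 8 had an unadjusted p below 0.05 (5.9% of all loci) and the median was -0.03. As an example, CSA1 read 71.9, 97.4, 99.1, 101 and 94.8 CPM in C24 C to G, 32.1, 50.2 and 54.4 in C24xLer C to E, and 31.4, 51.8 and 52.8 in LerxC24 C, U1 and U2, the last 2 being columns whose letter is in no label of that cross. Its hybrid libraries all lay below the C24 libraries.

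The direction of a cross gave no called locus among the 52 in any of the 3 pairs (0% of all 29777 loci were called, edgeR). DESeq2 called 1 of the 52 higher in C24xLer than LerxC24 and none in the other pairs. At an unadjusted p below 0.05 edgeR gave 13 of 52 for C24xLer against LerxC24 (3.08% of all loci), 0 for C24xCol against ColxC24 (2.4%) and 2 for ColxLer against LerxCol (3.56%). For C24xLer against LerxC24 45 of 52 were positive, with a median log2 difference of 0.30, which was 0.08 without LerxC24 B and 0.56 without LerxC24 A. The median level of the 52 loci was 46.7% and 51.6% of C24 in C24xLer A and B and 46.0% and 33.2% in LerxC24 A and B. In letter C the values were 34.16% and 31.97% in C24xLer and LerxC24, against the mean of C24 D to G, of which C24 C itself held 64.4%. The remaining libraries share no letter, with 49.2% and 47.6% in C24xLer D and E and 56.2% and 53.4% in LerxC24 U1 and U2.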

How the data were processed

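The deposited data are raw counts: whole numbers of reads for each locus in 34 libraries, which the authors left unnormalized. Per the submitters' processing notes the build was TAIR10 and FastQC was used. Aligner, counter and the use of strand: not given in the sources used here. Of 33321 loci 32565 were matched by locus tag to RefSeq's annotation of TAIR10.1, which gave names, classes, overlaps and sequences. Copies were sought with blastn 2.17.0+ at 95% identity.

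The 52 loci and all lists were chosen with earlier results of these data known. CPM of letters A and B used TMM factors of those 18 libraries (edgeR 4.0.16, R 4.3.3), and CPM of the other letters those of the 16 other libraries. Tests were edgeR's quasi-likelihood tests with filterByExpr by genotype and Benjamini-Hochberg adjustment over all loci tested, called at an adjusted p below 0.05, and were tested on simulated data. The test against the parents' mean compared the fitted hybrid level with the arithmetic mean of the parents' fitted CPM. SE is the standard error of a log2 difference.

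Alternatives were RLE factors, no filter, DESeq2 1.42.0, the letter as a block, each library left out, and libraries pooled or dropped. Letters pair libraries: deviations of same-letter libraries from their genotype means correlated at 0.307 to 0.801 in 36 pairs of letter A and at 0.596 to 0.938 in 14 pairs of letters C to G. The deviations of letter B mirror those of letter A, so they add no separate pairs. No replicate pair agreed within sampling noise (lowest chi-square per locus 24.8 over 67 pairs). In LerxC24, 2 columns carry a letter of no label and are called U1 and U2. With 2 libraries per genotype, p-values rest on a spread shared by all genotypes.

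Genes are named by level (the 12 highest by the lower of the C24 and Col means), by the 3 highest and 3 lowest ratios to the parents' mean in each family at 5 CPM or more, by up to 5 calls per direction, by the edge of the rule, by gene symbol and by neighbourhood. AT2G11140, AT5G48412, AT1G24145 and AT1G67000 fall outside it and were named after their values were seen. The values of 1 locus are not reported here.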

Additional observations from a re-analysis of the deposited data

Results flagged for a closer look

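Among 36 sets of C24 or Ler libraries outside letters A and B, 4 held a library flagged as far from the others of its set. The sets reuse the same libraries and are not independent. How often chance gives such a flag was not tested. CSA1 read 71.9 CPM in C24 C, below the 94.8 to 101 CPM of C24 D to G, but C24 A and B read 60.02 and 73.0. The nucleoside phosphatase gene AT1G14250 read 225 CPM in C24 D, above the 42.6 to 86.3 CPM of C24 C and E to G. In C24 A and B it read 157 and 192 CPM, so neither C24 value stands apart from all C24 libraries. In Ler D the same gene read 19.6 CPM, above the 0 to 2.90 CPM of the other Ler libraries. The dioxygenase gene AT5G43440 read 55.7 CPM in Ler D, above the 2.46 to 8.73 CPM of the others. Ler D is the library in which 50 of the 52 loci lay at or above 12.5% of the C24 level, and its part in these values was not tested further.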

How the results depend on the processing

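No called result changed its direction under any alternative. The set held 85 loci at a fold limit of 4 and 25 at 16, against 52. Leaving out 1 library moved the median ratio to the parents' mean between 0.896 and 0.997 (C24xLer), 0.644 and 0.881 (LerxC24), 1.07 and 1.11 (C24xCol), 1.02 and 1.11 (ColxC24), 1.05 and 1.16 (ColxLer), and 0.966 and 1.05 (LerxCol). Loci called higher in C24 than Ler outside letters A and B, 7 of 52, came to 21 with DESeq2, 28 with the letter as a replicate block (which also drops U1 and U2), 30 in 24 libraries (which include those of the rule), 21 without the C libraries, 37 without Ler D and Ler E, 48 without all of these (only Ler F and Ler G left of Ler), and 3 to 14 with a library left out (4 without C24 G, 14 without Ler D, 3 without Ler F, 3 without Ler G). In 1 fit of all 34 libraries, 2 loci (45 otherwise) were called lower in C24/Ler and 0 (40 otherwise) in Col/Ler against C24/Col hybrids, and 0 higher and 1 lower between C24/Ler and Col/Ler hybrids. DESeq2 called 1 locus higher in C24xLer than LerxC24. With a library left out the counts against C24/Col hybrids were 41 to 47 and 33 to 41. The block changed no other count of the 52 called by over 1.5 times, but over all loci it raised the calls lower against C24/Col hybrids from 1453 to 2690 (C24/Ler) and from 1162 to 2467 (Col/Ler). Against the mean of the parents, the median log2 difference outside letters A and B was 0.17 in place of -0.25 when that mean was taken on the log scale. The cause of these changes was not tested. Loci near 1 CPM have few counts per library, and fewer in the C libraries. Zeros in the C libraries were not limited to such loci. AT2G13660 read 0 in C24 C but 26.9 to 54.0 CPM in the other C24 libraries.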
